A study of Mus musculus with 16 samples.

Results

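The clustered protocadherin genes were followed in RNA from mouse embryonic stem cells (ESCs) that had lost the maintenance DNA methyltransferase Dnmt1, with or without loss of Dicer1. They were taken as every gene of the deposited expression table whose symbol starts with Pcdha, Pcdhb or Pcdhg, which gave 24 of 26127 genes: 2 of the alpha cluster, 21 of the beta cluster and 1 of the gamma cluster. The gamma entry carries the symbol of the C-type gene Pcdhgc5 but, as described below, pools transcripts of the gamma cluster. Pcdhac1, Pcdhac2, Pcdhgc3 and Pcdhgc4 have no entry of their own among the 24. Whether the pooled alpha and gamma entries hold their transcripts was not examined.

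Clustered protocadherins are cell-surface adhesion proteins of the cadherin superfamily. In neurons each cell expresses a small set of them, and like isoforms on touching membranes recognise each other, which lets a neuron tell its own branches from those of others. In the alpha and gamma clusters each variable first exon has its own promoter and is spliced to shared constant exons, whereas each beta gene is a single-exon gene. Which promoter is used depends on CTCF and cohesin and on promoter DNA methylation, in which Dnmt3b and Smchd1 take part.

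The 16 libraries of total RNA, depleted of ribosomal RNA, fell into 3 groups by their genotype label: 8 of Wildtype (WT) cells, 4 of Dnmt1-/- cells (Dnmt1 KO) and 4 of Dicer/Dnmt1 -/- cells (Dicer/Dnmt1 KO). All carry the strain label E14 and the cell type label ESC. The methods of the study instead name the strain of the parent line as C57BL/6, and which holds for these libraries is not settled here. Per the same methods, that line carried a loxP-flanked Dnmt1 (Dnmt1 loxP/loxP) that Cre deletes on addition of tamoxifen, Dicer was mutated in that line with CRISPR/Cas9 and lines were grown from single colonies, and cells were kept in serum and LIF with or without feeder fibroblasts. The labels give neither the time after tamoxifen nor which of the Dicer alleles described was used, so that each knockout group is 1 genotype as a model and not a time course. Libraries carry a number and a letter, A or B, whose meaning is not stated. Nothing says that they came from separate cultures, and p-values then measure only the spread between these libraries, which may be technical.

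The libraries held 31.5 to 52.5 M reads. Levels are given as RPM (reads per 1 M reads of the library) or their log2. At this depth a count of 0 allows up to 3 reads, or 0.0571 to 0.0954 RPM, and such limits cover counting error only. They also take each read as an independent count. Odd counts made up 70.6% to 74.4% of values from 1 to 12 reads, so this may not hold and the limits may be too low. The deleted genes followed the labels. Dnmt1 went from 7.06 ± 0.89 log2 RPM in WT (SD, n = 8) to 4.40 ± 0.19 in Dnmt1 KO (n = 4), a log2 fold change of -2.66 (limma, adjusted p = 1.18e-05). For Dicer1 the Dicer/Dnmt1 KO libraries gave a log2 fold change of -1.40 from WT (limma, adjusted p = 2.81e-06). The libraries WT 4A and WT 4B stood apart, with Dnmt1 at 5.69 and 5.55 beside 7.40 to 7.66 in the other WT libraries. The values of Pcdhgc5, and the counts of the gene lists against WT that move without these libraries, are also given so. The pluripotency markers were expressed throughout, with none at 0 and a summed level of 2223 to 3542 RPM in WT, 2013 to 2636 in Dnmt1 KO and 2140 to 2436 in Dicer/Dnmt1 KO. Of the 11 tested, none rose and 3 fell in Dnmt1 KO, and 1 rose and 3 fell in Dicer/Dnmt1 KO, each set against WT. Of all tested genes, 23.5% rose and 17.5% fell in the first comparison, and 31.9% and 30.1% in the second. Without WT number 4 none rose and 4 fell in Dnmt1 KO, and 1 rose and 4 fell in Dicer/Dnmt1 KO.

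All 24 genes lie on the plus strand of chromosome 18 (build NCBIM37), between 37089939 and 38001527, a span of 0.912 Mb. The alpha genes come first, the beta genes follow between 37424652 and 37681073, and the gamma entry closes the locus. The entry named Pcdha11 (ENSMUSG00000007440, 37089939 to 37347311) is not a single alpha gene in the annotation. It covers 257 kb and holds 10 transcripts, each with its own first exon, and 21810 of its 24688 exon bases are first exons. Pcdhgc5 (ENSMUSG00000023036, 37833989 to 38001527) is built the same way, with 10 transcripts and 10 first exons over 168 kb and 26920 of 28980 exon bases in first exons. Both values therefore pool many promoters and the constant exons, and the choice among variable exons cannot be read from them. Pcdha3 (ENSMUSG00000091969, 37105801 to 37108685) lies inside the span of Pcdha11 and shares no exon base with it.

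Close relatives can lose reads when only uniquely mapped reads are kept. For the 21 beta genes, 97.5% (Pcdhb6) to 100% of the windows of 100 bases along their exons had no second exact match anywhere in the genome sequence of build NCBIM37, on either strand. The share was 99.5% for Pcdhgc5, 95.8% for Pcdha11 and 92.2% for Pcdha3. Near matches, which can also lower a mapping quality, were not counted.

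Across the 3 groups the locus was dominated by the pooled gamma entry, Pcdhgc5. It held 96.0% of all reads of the 24 genes. Per length, its mean was 1.21 RPM per kb of all exons, against 0.0312 for Pcdha11 and 0.0649 for Pcdhb22, the highest beta gene. Its place among expressed genes depended on the length used. Per kb of all exons it was higher than 23.9% of the tested genes, and per kb of its longest transcript (5777 bases, 6.08 RPM per kb) higher than 59.4% of 12870. At the other end, 22 of the 24 genes, all but Pcdhgc5 and Pcdha11, never exceeded 0.5 RPM in any library.

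In Pcdhgc5, the gamma entry, levels in WT ran from 4.32 to 5.52 log2 RPM with a median of 5.0, on 670 to 1497 reads. The 4 Dnmt1 KO libraries held 4.99, 5.12, 5.16 and 5.13 log2 RPM, well inside the range of WT. The 4 Dicer/Dnmt1 KO libraries held 5.49, 5.52, 5.27 and 5.25 log2 RPM, each above the WT mean of 4.97. One of them lay above every WT library, and 1 WT library (WT 1A) lay above the lowest of them. All 4 lay above all 4 Dnmt1 KO libraries, which 20.8% of the tested genes also did. As mean RPM, WT stood at 32.1 ± 7.87 (SD, n = 8). Dnmt1 KO stood at 34.4 ± 1.77 (n = 4) and Dicer/Dnmt1 KO at 41.8 ± 4.18 (n = 4). Taken from the means of log2 RPM instead, the folds over WT were 1.10 and 1.33.

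**Figure D1:**
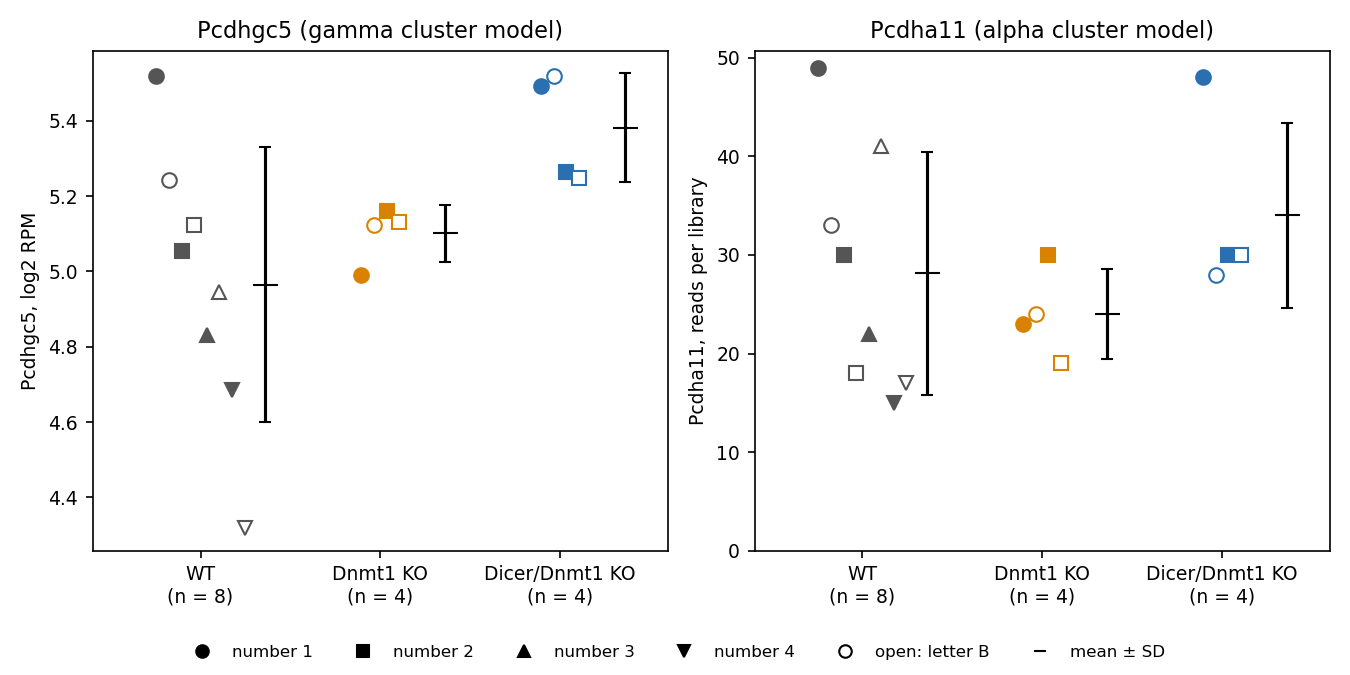
Levels of the gamma entry Pcdhgc5 (left, log2 RPM, axis not starting at 0) and reads of the alpha entry Pcdha11 (right) in each of the 16 libraries, by group. Shapes are library numbers, open shapes letter B, and bars the mean ± SD of 8, 4 and 4 libraries. In Pcdhgc5 every WT library but WT 1A lies below all 4 Dicer/Dnmt1 KO libraries. Those numbered 3 and 4 are lowest, at 4.32 to 4.95. Pcdha11 spreads over 15 to 49 reads in WT alone.

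Whether loss of Dnmt1, or of Dicer1 as well, changed these genes was asked with a limma fit of all 16 libraries over the 12892 genes above 1 RPM in at least 4 libraries. Of the 24 genes only Pcdhgc5 passed this filter, so the other 23 have no call from it. Pcdhgc5 did not pass the test in Dnmt1 KO against WT, with a log2 fold change of 0.14 (SE 0.153, 95% interval -0.19 to 0.46, adjusted p = 0.503). It rose in Dicer/Dnmt1 KO against WT by 0.42 (SE 0.153, 0.09 to 0.74, adjusted p = 0.0256). Between Dicer/Dnmt1 KO and Dnmt1 KO it differed by 0.28 (SE 0.177, -0.09 to 0.65, adjusted p = 0.229). Calls were common in these data: 41% of the tested genes passed in Dnmt1 KO against WT, 61.9% in Dicer/Dnmt1 KO against WT and 36.3% between the knockouts, so that 1 call in the 1 gene tested cannot be set apart from the background. Both knockouts were set against the same 8 WT libraries, and the comparison of the knockouts shares its libraries with the other two.

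The rise of Pcdhgc5 rested on which WT libraries were used. The 4 WT libraries numbered 1 and 2 averaged 5.23 ± 0.20 log2 RPM and the 4 numbered 3 and 4 averaged 4.70 ± 0.27 (SD). Against the numbers 1 and 2 alone the difference of Dicer/Dnmt1 KO was 0.15 (adjusted p = 0.223), and against 3 and 4 alone it was 0.69 (adjusted p = 9.5e-05). Against the same libraries, Dnmt1 KO had log2 fold changes of -0.13 beside numbers 1 and 2 (adjusted p = 0.292) and 0.41 beside numbers 3 and 4 (adjusted p = 0.00934). Without WT number 4, the libraries with less Dnmt1 RNA, Dicer/Dnmt1 KO remained 0.26 higher (adjusted p = 0.0417) and Dnmt1 KO differed by -0.02 (adjusted p = 0.906). With libraries A and B of each number averaged, the rise in Dicer/Dnmt1 KO kept its size and lost its call (0.42, adjusted p = 0.136).

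**Figure D2:**
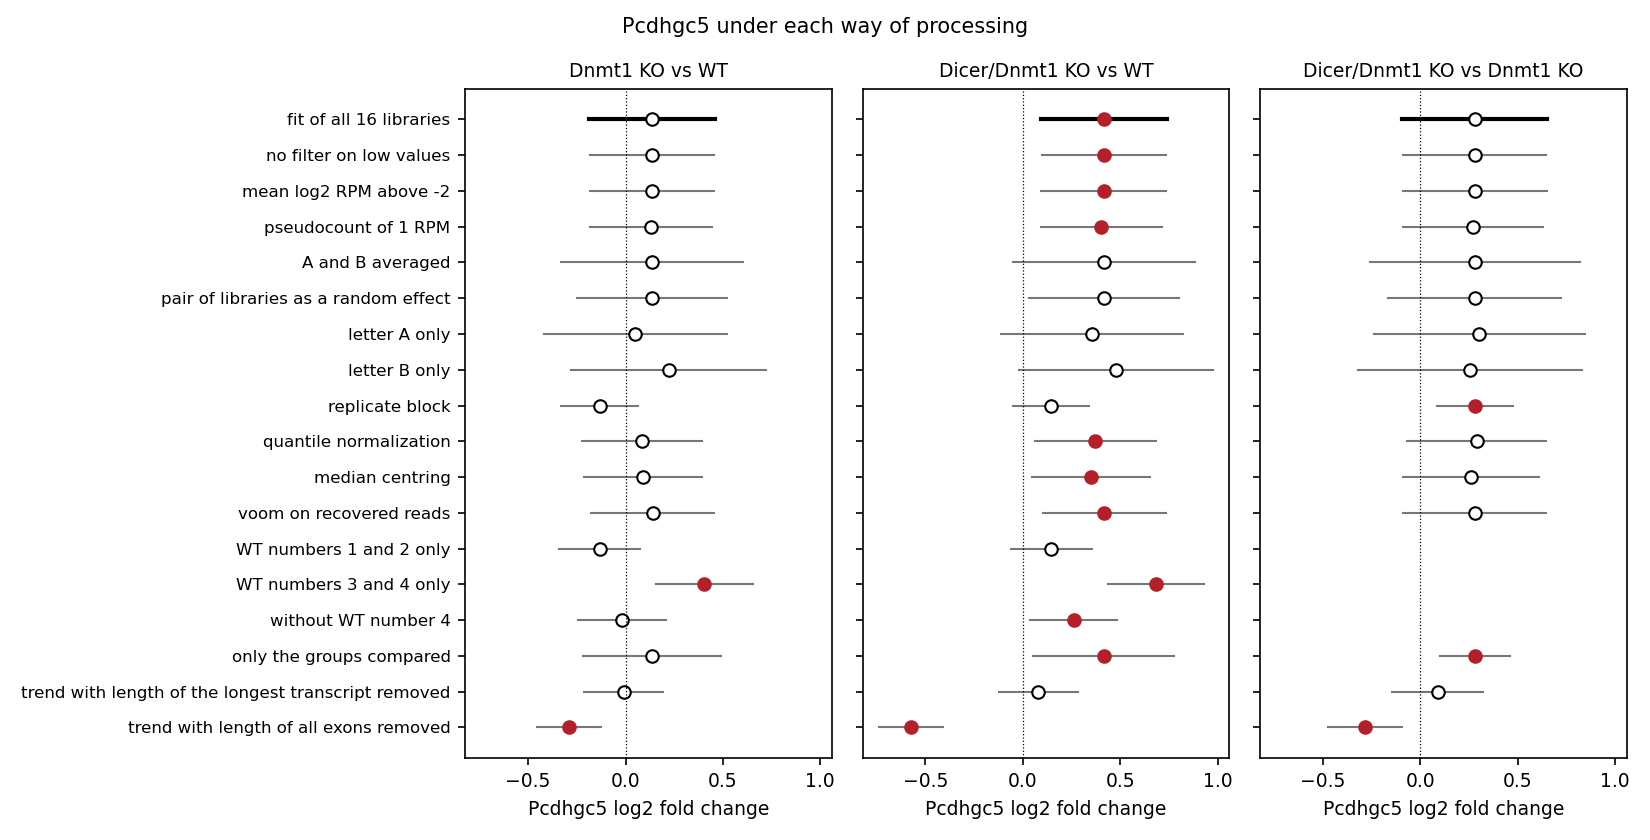
Log2 fold change of Pcdhgc5 in the 3 comparisons (panels) under each way of processing (lines), with 95% intervals; filled red points passed an adjusted p of 0.05 and open points did not. In Dicer/Dnmt1 KO against WT the estimate runs from 0.69 against WT numbers 3 and 4 to -0.57 once the trend with the length of all exons is removed.

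Fold changes also ran with gene length over the tested genes. Among tested genes whose longest transcript spans 4 to 8 kb, as that of Pcdhgc5 does, the median in Dicer/Dnmt1 KO against WT was 0.23 on the log2 scale, and 44.8% of these 3692 genes were called higher. Genes with a longest transcript under 1 kb had a median of -0.48. By the length of all exons, Pcdhgc5 belongs to the 98 genes over 16 kb, whose median was 0.69. In 2 fits chosen after seeing the data, the trend of each library with length was removed first. With the length of the longest transcript the difference of Pcdhgc5 fell to 0.08 (adjusted p = 0.489), and with the length of all exons it became -0.57 (adjusted p = 5.77e-06), while each correction moved the median of all tested genes in this comparison by -0.12. The exon total of Pcdhgc5 pools alternative first exons, and its longest transcript holds 1 of them. The part of length in the difference was not tested beyond this.

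**Figure D3:**
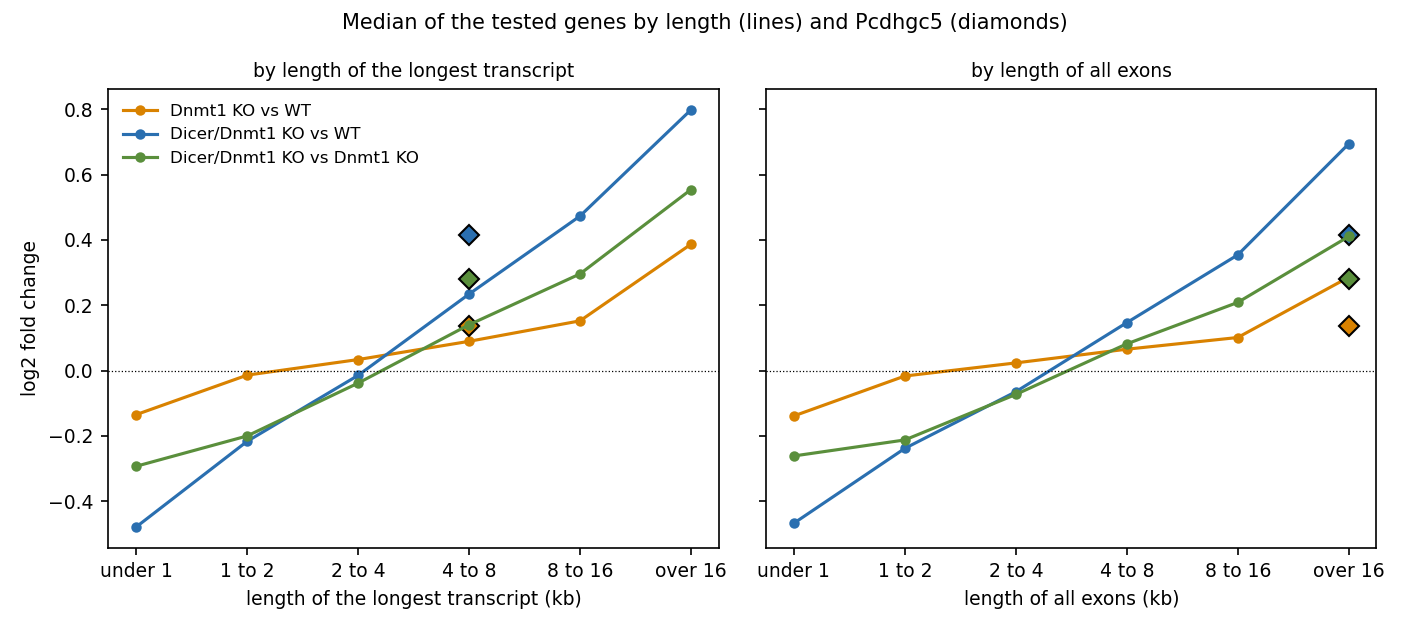
Median log2 fold change of tested genes in classes of length (kb), by longest transcript (left) and by all exons (right), 1 line per comparison, with Pcdhgc5 as diamonds of the same colour. In Dicer/Dnmt1 KO against WT the medians climb from -0.48 under 1 kb to 0.80 over 16 kb on the left; Pcdhgc5, at 0.42, sits above the line there and below it on the right.

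In the alpha cluster, Pcdha11 had reads in every library but few of them. WT libraries held 15 to 49 reads with a median of 26. Dnmt1 KO libraries held 23, 24, 30 and 19 reads and Dicer/Dnmt1 KO libraries 48, 28, 30 and 30, so that all groups overlapped. The mean level was 0.718 ± 0.402 RPM for WT (SD, n = 8), 0.665 ± 0.112 for Dnmt1 KO (n = 4) and 0.979 ± 0.223 for the double knockout (n = 4). In a fit with no filter on low values the log2 fold changes of Pcdha11 were 0.05 in Dnmt1 KO against WT (adjusted p = 0.921), 0.60 for Dicer/Dnmt1 KO and WT (adjusted p = 0.165) and 0.55 between the knockouts (adjusted p = 0.504). None passed, and the first has an interval of -0.70 to 0.81, wide enough to hold a change of the size seen in Pcdhgc5. Pcdha3, the alpha gene with an entry of a single first exon, had at most 1 read in any library and none in the Dnmt1 KO libraries.

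The beta cluster was close to silent in all 3 groups. Of its 336 values (21 genes in 16 libraries), 197 were 0, 102 were 1 to 3 reads and 37 were above 3 reads, and the highest was 0.407 RPM. In all it held 429 reads, of which 61.3% came from 4 genes and 28.7% from Pcdhb22. At the silent end, Pcdhb1 had no read in any library, and Pcdhb7 and Pcdhb10 had 1 read each. In 13 of the 21 no library exceeded 3 reads, the limit that a count of 0 allows, beside 30.5% of all genes in the table. Of these 13, Pcdhb21 had the most reads, 12 in 7 libraries.

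**Figure D4:**
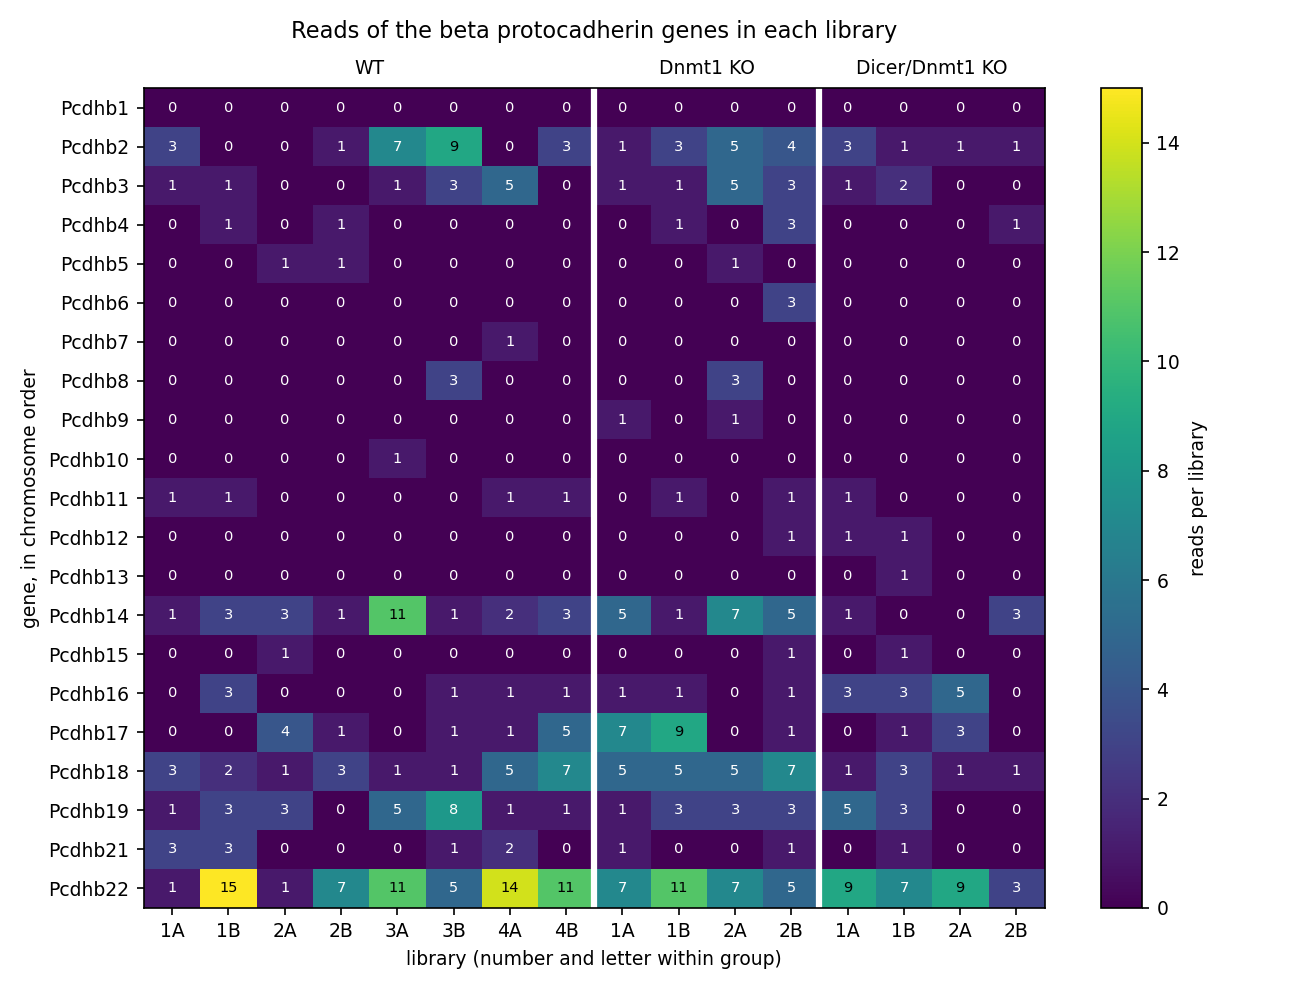
Reads of the 21 beta genes (vertical, in chromosome order) in each of the 16 libraries (horizontal, by group); colour and number give the reads. Most cells are 0, and Pcdhb22, Pcdhb18, Pcdhb14 and Pcdhb2 hold 27 of the 37 values above 3 reads.

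The 4 leading beta genes stood close to the floor of detection too. Pcdhb22 (ENSMUSG00000073591, 37678007 to 37681073), the last beta gene before the gamma cluster, had 1 to 15 reads in WT with a median of 9. It had 7, 11, 7 and 5 in Dnmt1 KO and 9, 7, 9 and 3 in Dicer/Dnmt1 KO, all within the range of WT. Pcdhb18 (ENSMUSG00000048347, 37649119 to 37654159) had 1 to 7 reads in WT with a median of 2.5, then 5, 5, 5 and 7 in Dnmt1 KO and 1, 3, 1 and 1 in Dicer/Dnmt1 KO. It was the one gene of the 24 in which every Dicer/Dnmt1 KO library lay below every Dnmt1 KO library, which 14.6% of all genes with reads also did. Pcdhb14 (37607311 to 37610748) had 1 to 11 reads in WT (median 2.5). Its Dnmt1 KO libraries held 5, 1, 7 and 5 and its Dicer/Dnmt1 KO libraries 1, 0, 0 and 3. Pcdhb2 (37454494 to 37457267) had 0 to 9 reads in WT (median 2), beside 1, 3, 5 and 4 in Dnmt1 KO and 3, 1, 1 and 1 in Dicer/Dnmt1 KO. In both genes the groups overlapped.

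Summed over the 21 genes, the beta cluster reached 0.352 to 0.953 RPM in WT (median 0.703, on 14 to 37 reads). Dnmt1 KO libraries reached 0.912, 0.866, 0.998 and 1.18 RPM, on 30 to 39 reads, and Dicer/Dnmt1 KO libraries 0.675, 0.755, 0.497 and 0.286 RPM, on 9 to 25. The Dnmt1 KO libraries thus overlapped the top of WT and lay above all 4 Dicer/Dnmt1 KO libraries. The means were 0.636 ± 0.229 (SD, n = 8), 0.989 ± 0.140 (n = 4) and 0.553 ± 0.208 RPM (n = 4), on 210, 142 and 77 reads in all. With single libraries left out they were 0.591 to 0.677, 0.925 to 1.03 and 0.486 to 0.642 RPM. At so few reads per library, counting error adds to this spread. Since the members share a locus and were chosen together, no test was made of the sum. The number of beta genes with any read was 7 to 10 per WT library, 9 to 14 per Dnmt1 KO library and 5 to 11 per Dicer/Dnmt1 KO library. Over all genes of the table, those without reads numbered 8196 to 8961 per WT library. They numbered 7854 to 8211 in Dnmt1 KO and 8033 to 8349 in Dicer/Dnmt1 KO, so detection differed between groups beyond the beta cluster.

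With no filter on low values, all 24 genes could be fitted, though on a scale where a gene without reads is written as 0.9 read. That floor moves with the depth of each library. Pcdhb1, with no read in any library, thus had log2 fold changes of 0.18 and 0.24 in the knockouts against WT. In Dnmt1 KO against WT none of the 24 passed, beside 22% of all genes, and 3 had an unadjusted p under 0.05. Among these, Pcdhb6 had 3 reads in 1 library and none elsewhere. In Dicer/Dnmt1 KO against WT 2 passed, Pcdhgc5 (adjusted p = 0.0406) and Pcdhb16 (adjusted p = 0.00547), beside 34.3% of all genes. Between the knockouts 2 passed, Pcdhb16 as higher in Dicer/Dnmt1 KO (adjusted p = 0.031) and Pcdhb18 as lower (adjusted p = 0.0472), beside 16.2% of all genes. Pcdhb16 was named after its values were seen. It had 0 to 3 reads in WT, 1, 1, 0 and 1 in Dnmt1 KO and 3, 3, 5 and 0 in Dicer/Dnmt1 KO, so that its calls rest on at most 5 reads in a library. All 3 shares of the 24 genes lay below the share of all genes, in a set of which 22 never exceeded 0.5 RPM.

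Activation from silence was described with a cut of 0.5 RPM. Of the 24 genes, 22 were under 0.5 RPM in every WT library. These are the genes that never exceeded 0.5 RPM in any library, so the outcome below was fixed by that count. Against background shares as small as those below, finding none among 22 genes does not set the locus apart. None of them was above 0.5 RPM in every Dnmt1 KO library, beside 1.33% of the 12023 genes that were silent in WT by the same rule, and none was above it in every Dicer/Dnmt1 KO library, beside 1.41%.

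The starts of the beta genes differed from those of expressed genes in base composition, as a description of the annotated starts. From 250 bases before to 50 bases after the start, the ratio of observed to expected CpG had a median of 0.426 over the 21 beta genes (range 0.21 to 0.851) with a median of 5 CpG sites. The median was 0.488 over all genes and 0.744 over the tested genes. The 10 transcript starts of Pcdhgc5 had a median ratio of 0.404 and those of Pcdha11 0.656. Methylation of these starts was not analysed here.

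Of the 12 genes annotated nearest to the locus or between its clusters, 8 passed the filter that all 21 beta genes failed. Taf7, a subunit of the general transcription factor TFIID that lies between the beta and gamma clusters, passed in neither knockout against WT (log2 fold changes -0.14, adjusted p = 0.418, and -0.29, adjusted p = 0.0662). Hars2, a mitochondrial histidyl-tRNA synthetase just before the alpha cluster, fell in Dicer/Dnmt1 KO by 1.20 on the log2 scale against WT (adjusted p = 3.88e-07). Beyond the gamma cluster, Hdac3, a histone deacetylase, fell by 0.31 (adjusted p = 0.0014) and Diap1, an actin-nucleating formin, rose by 0.60 (adjusted p = 0.0105) in the same comparison. Neither passed with A and B averaged (adjusted p = 0.0568 and 0.0859), and Diap1 not once the trend with the longest transcript was removed (0.26, adjusted p = 0.0695). Slc25a2, a mitochondrial carrier between the clusters, did not reach the filter.

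An RNA antisense to the gamma cluster had more reads in Dicer/Dnmt1 KO than in WT. Gm16882 (37906213 to 37927896), a long intergenic noncoding RNA on the minus strand, shares 1647 exon bases with Pcdhgc5. It had 7 to 27 reads in WT with a median of 18.5. Dnmt1 KO libraries held 17, 25, 23 and 37 reads and Dicer/Dnmt1 KO libraries 35, 50, 51 and 64. How many other genes separate from WT in this way was not counted. It passed the filter on low values only through knockout libraries, with no WT library above 0.678 RPM, so its levels are given as a description with no test. The libraries are stranded, but the strand setting of the counting is not given in the sources used here, so reads of the shared bases cannot be assigned to 1 strand. Gm16882 had at most 64 reads in a library and Pcdhgc5 at least 670.

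The nonclustered protocadherins, which lie outside these arrays and carry their own promoters, were compared as the nearest relatives. All 12 on the list had entries and 4 passed the filter. In Dnmt1 KO against WT 2 of the 4 rose and none fell (median log2 fold change 0.35, beside 0.04 over all tested genes, of which 23.5% rose), and in Dicer/Dnmt1 KO against WT 2 rose and none fell (0.48, beside 0.02 and 31.9%). With pairs of libraries as a random effect 1 of the 4 rose in each comparison, and without WT number 4 the medians were 0.17 and 0.29. Between the knockouts none of the 4 passed (0.12, beside -0.01), where 36.3% of all tested genes did. Pcdh19, an X-linked adhesion gene mutated in an epilepsy of females, had 44 to 81 reads in WT. It had 119, 138, 141 and 114 in Dnmt1 KO and 191, 109, 147 and 117 in Dicer/Dnmt1 KO. Its log2 fold changes were 1.25 (SE 0.143, adjusted p = 2.48e-06) and 1.42 (SE 0.143, adjusted p = 2.35e-07), and both kept their call under every alternative run for it, which did not include leaving out single libraries. Pcdh7 rose by 0.68 (adjusted p = 0.0210) and 0.92 (adjusted p = 0.0018), the first not when A and B were averaged (adjusted p = 0.0984), and neither with pairs of libraries as a random effect (adjusted p = 0.206 and 0.0508). The first was also lost with quantile normalization, against WT numbers 1 and 2, with either letter alone and with the trend of the longest transcript removed. The other two did not pass: Pcdh18 had log2 fold changes of -0.32 (adjusted p = 0.477) and -0.25 (adjusted p = 0.523) against WT, and Pcdh1 0.02 (adjusted p = 0.966) and 0.04 (adjusted p = 0.930).

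Genes known to act on the protocadherin promoters were all expressed. Of the 25 on the list, 6 rose and 2 fell in Dnmt1 KO against WT (median 0.07, beside 0.04), where 23.5% of all tested genes rose and 17.5% fell. This balance was not stable: without WT number 4 it was 6 higher and 7 lower (median -0.05), with median centring 6 and 7, with the replicate block 6 and 8, and with the trend of the longest transcript removed 6 and 10. Against WT, Dicer/Dnmt1 KO had 9 that rose and 2 that fell (0.10, beside 0.02), where 31.9% of all tested genes rose and 30.1% fell. There it was 9 and 4 without WT number 4, 1 and 2 with A and B averaged, and 1 and 14 with the trend of the longest transcript removed. Dnmt3b, the de novo methyltransferase that methylates these promoters, rose in Dnmt1 KO by 0.67 (adjusted p = 7.96e-04) and was lower in Dicer/Dnmt1 KO than in Dnmt1 KO (log2 fold change -0.99, adjusted p = 1.44e-04). Ehmt2, an H3K9 methyltransferase, rose in Dnmt1 KO by 0.53 (adjusted p = 4.66e-06), and the cohesin subunit Stag2 fell in Dicer/Dnmt1 KO by 0.69 against WT (adjusted p = 3.28e-06). Ctcf and Smchd1, named for their place in the background above and outside the rule of size, had log2 fold changes of 0.09 (adjusted p = 0.596) and -0.15 (adjusted p = 0.127) in Dnmt1 KO against WT. Between the knockouts 3 regulators were higher and 5 lower in Dicer/Dnmt1 KO, where 16.9% of all tested genes were higher and 19.4% lower.

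Of the 19 listed partners through which clustered protocadherins are cut and signal, 18 were tested. In Dnmt1 KO against WT 6 of them rose and none fell (median 0.14, beside 0.04 and the same 23.5% and 17.5% of all tested genes). That count fell to 4 higher and 1 lower without WT number 4 (median 0.05), to 2 and none with pairs of libraries as a random effect, and to 1 and none with A and B averaged. In Dicer/Dnmt1 KO against WT 8 rose and 1 fell (0.30, beside 0.02), or 6 and 1 without WT number 4 and with the random pair. With the trend of the longest transcript removed both comparisons gave 3 higher and 3 lower. Between the knockouts 2 were higher and 1 lower in Dicer/Dnmt1 KO, beside 16.9% and 19.4% of all tested genes. Adam10, the protease that sheds the extracellular part, rose by 1.02 (SE 0.188, adjusted p = 3.50e-04) and 1.67 (SE 0.188, adjusted p = 8.94e-07). Wasf2, a subunit of the WAVE complex that binds the cytoplasmic tail, rose by 0.64 in Dnmt1 KO, but not when A and B were averaged (adjusted p = 0.103).

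Markers of other cells moved with the groups too, and their part in the values above was not tested. Of 14 feeder fibroblast markers, none at 0 in every library, 11 were tested, and 8 rose and none fell in Dnmt1 KO against WT and 10 rose and none fell in Dicer/Dnmt1 KO against WT, where 23.5% and 31.9% of all tested genes rose. With pairs of libraries as a random effect 7 and 9 rose, and with A and B averaged 5 and 9. Their summed level was 64.1 to 112 RPM in WT, 134 to 159 in Dnmt1 KO and 139 to 235 in Dicer/Dnmt1 KO. Of 20 neuronal markers with an entry, 13 were tested, of which Dnmt1 KO had 3 higher and 2 lower than WT, and Dicer/Dnmt1 KO 7 and 4. Of all tested genes, 17.5% and 30.1% fell in these comparisons. Without WT number 4, Dnmt1 KO had 3 neuronal markers higher and 4 lower. Between the knockouts no feeder marker passed, and 4 neuronal markers were higher and none lower in Dicer/Dnmt1 KO. There 16.9% of all tested genes were higher and 19.4% lower. The neuronal markers summed to 153 to 212, 146 to 160 and 165 to 192 RPM. In such bulk libraries, fewer cells of a type and less RNA per cell cannot be told apart.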

How the data were processed

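RNA of 16 ESC libraries was analysed as deposited. The authors trimmed reads with Trim Galore 0.3.5, aligned them with TopHat2 2.0.11 to NCBIM37, discarded mapping qualities under 20 and quantified genes in SeqMonk. They deposited log2 RPM per library, with a gene without reads written as 0.9 read, and called changes with DESeq2 and an intensity difference test. A further 35 value columns of other samples were not used. Returned to the linear scale, 100% of the nonzero values judged (up to 1000 reads, within 0.05 read) were whole reads, and these gave the reads printed. Odd counts made up 70.6% to 74.4% of values from 1 to 12 reads and 48.9% to 51.9% of those from 101 to 400 reads. The processing notes of the submitters list GRCm38 beside NCBIM37, and coordinates of 26068 of 26127 genes equal those of the NCBIM37 annotation used here.

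limma 3.58.1 (R 4.3.3) fitted 3 group means to the deposited log2 RPM of genes above 1 RPM in at least 4 libraries, with an intensity trend, Benjamini-Hochberg adjustment over all tested genes and a threshold of 0.05. The steps were tested on simulated data. Summaries used Python 3.11.15 with pandas 2.3.3. Lists and named genes followed a rule of size or level (the 4 highest genes of each cluster, the 3 lowest, the C-type genes, the called genes, and in other lists the 3 largest changes). The members, lists and rule were chosen with earlier results of these data known. Alternatives covered the filter, pseudocount, replicate unit, block, normalization, WT libraries, samples in the fit and single libraries left out. Library numbers shared across groups are not stated to pair them. Over the tested genes, the differences between numbers 1 and 2 correlated at -0.02 for WT and Dnmt1 KO, 0.42 for WT and Dicer/Dnmt1 KO and -0.22 for the knockouts. With 1 such difference per group, a pairing can be neither shown nor excluded. CpG ratios and window matches were computed from the reference genome of build NCBIM37.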

Additional observations from a re-analysis of the deposited data

Results flagged for a closer look

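A search covered 28 groups of 4 to 8 libraries with at least 1 library above 3 reads. In 5 groups a library lay far from the others by Dixon's criterion at the 95% level. For independent normal values that criterion flags about 1 in 20 groups by chance. Counts of a few reads are not such values, groups were kept for a library above 3 reads, and the alpha sum repeats Pcdha11. The 5 flagged groups therefore cannot be set against that rate. Pcdha11 reached 1.55 RPM in WT 1A (49 reads), beside 0.895 RPM in the next WT library, and the alpha cluster summed reached 1.59 RPM there for the same reads. Pcdhb14 reached 0.209 RPM in WT 3A (11 reads), beside 0.0893 RPM in the next. Pcdhb18 reached 0.208 RPM in WT 4B (7 reads), beside 0.108 RPM in WT 4A. Pcdhb22 was lowest in Dicer/Dnmt1 KO 2B, at 0.0954 RPM (3 reads), beside 0.220 RPM in the next library of its group.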

How the results depend on the processing

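Pcdhgc5 kept its direction in each comparison except where named here. In Dnmt1 KO against WT the log2 fold change of Pcdhgc5 was -0.13 with the replicate block (adjusted p = 0.245), -0.13 against WT numbers 1 and 2, 0.41 against 3 and 4, -0.018 without WT number 4, -0.0092 with the trend of the longest transcript removed and -0.29 with that of all exons removed (adjusted p = 0.00549). Leaving out each library in turn gave 0.04 to 0.22. In Dicer/Dnmt1 KO against WT the call was lost with A and B averaged (0.42), with pairs of libraries as a random effect (0.42, adjusted p = 0.0725), with letter A alone (0.36) or letter B alone (0.48), with the replicate block (0.15, adjusted p = 0.183), against WT numbers 1 and 2 (0.15) and with the longest transcript trend removed (0.08), and it reversed with the all-exon trend removed (-0.57). Leaving out single libraries gave 0.32 to 0.49, and the call was lost without Dicer/Dnmt1 KO 1A (0.38, adjusted p = 0.0739) or 1B (0.37, adjusted p = 0.079). Between the knockouts Pcdhgc5 passed with the replicate block (0.28, adjusted p = 0.0181) and in a fit of these groups alone (0.28, adjusted p = 0.0141), and became -0.28 with the all-exon trend removed (adjusted p = 0.0201); single libraries left out gave 0.23 to 0.32. Both length trends were added after seeing the data, and the cause of these changes was not tested.

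The count of the 24 genes called in Dnmt1 KO against WT went from 0 to 1 against WT numbers 3 and 4 and with the all-exon trend removed. In Dicer/Dnmt1 KO against WT it went from 1 to 2 without a filter and to 0 with averaging, the random pair, either letter alone, the replicate block, WT numbers 1 and 2, the longest transcript trend removed or a 2-fold minimum, and was 0 to 1 with single libraries left out. Between the knockouts it went from 0 to 2 without a filter and to 1 with the replicate block, the groups alone or the all-exon trend removed. Without a filter, single libraries left out gave 0 to 1, 1 to 3 and 0 to 2 calls. Pcdha11 in Dnmt1 KO against WT ranged from -0.087 to 0.24 and Pcdhb22 between the knockouts from -0.24 to 0.22 with single libraries left out, both changing sign. With a gene without reads kept at 0.9 read, the summed beta level was 0.922, 1.24 and 0.905 RPM in WT, Dnmt1 KO and Dicer/Dnmt1 KO.

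Over all tested genes the block gave 6541, 7828 and 6690 calls, beside 5289, 7985 and 4682 without it and 2288, 5134 and 1225 with A and B averaged. With the numbers of the knockouts crossed, added after seeing the data, 7247 genes were called, beside 6396 uncrossed and 6088 without a block. Depth limits the beta genes. No fold is given for those at 3 reads or fewer in every group, except for Pcdhb1, whose values show how the floor moves.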

Other observations

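Pcdh12, a protocadherin of endothelial and placental cells that lies beyond the gamma cluster on chromosome 18 (38426746 to 38444055), was below the filter and was named after its values were seen. It had 0 or 1 read in each WT library, 3, 7, 3 and 0 in Dnmt1 KO and 9, 9, 7 and 11 in Dicer/Dnmt1 KO. The mean RPM of WT was 0.0111 ± 0.0121 (SD, n = 8), that of Dnmt1 KO 0.0851 ± 0.0689 (n = 4) and that of Dicer/Dnmt1 KO 0.265 ± 0.0700 (n = 4). All 4 Dicer/Dnmt1 KO libraries thus lay above all 4 Dnmt1 KO libraries, which 20.8% of the tested genes also did. How many genes below the filter separate from WT in this way was not counted. No test was made of Pcdh12.

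The gene 3222401L13Rik, between the beta and gamma clusters, rose in both knockouts against the shared WT libraries, by 0.68 (adjusted p = 0.00158) and 0.66 (adjusted p = 0.00108), and lost both calls with letter A or letter B alone and the first with pairs of libraries as a random effect.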
